A study of Bos taurus with 2 samples.

Results

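Cluster 1 and cluster 8 are groups of cultured bovine satellite cells that the study placed next to each other on an inferred path from progenitor to differentiating muscle cell, and they were compared gene by gene. Both are among the 15 clusters that the study drew from 19096 cells. The deposited average of each gene in each cluster, multiplied by the UMI total of the cluster and divided by the common total of 14889, gives a whole number of UMIs, and these sums fixed the cluster of every cell. Cluster 1 held 2493 cells and cluster 8 held 1241 cells, 3734 of the 19096 cells in all.

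The cells came from the longissimus muscle of 1 Holstein bull calf aged 2 weeks and were grown for 1 week in medium with fetal bovine serum, and no treatment was compared. From these cells 2 libraries were made on the 10x Genomics platform, in which droplets tag the RNA of each cell with a barcode and every captured molecule with its own unique identifier (UMI). These libraries, replicates 1 and 2, shared the calf and the culture, so their spread is technical, and differences between animals were not measured. The study placed cluster 8 among satellite cells through PAX3. It placed cluster 1 among myoblasts through the levels of MYOD1, MYF5 and DES, and named MYF5 as the gene enriched there. Both enrichments were against the cells of all other clusters. The study's trajectory ran from cluster 8 to cluster 1 and from there to cluster 3, with cluster 5 as the other neighbour of cluster 8.

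Satellite cells are the resident stem cells of skeletal muscle. They carry the transcription factors PAX7 or PAX3, and once activated they express the myogenic regulatory factors MYF5 and MYOD1, which open muscle genes to transcription. Cells that go on to differentiate leave the cell cycle with the help of inhibitors of cyclin-dependent kinases, switch on MYOG, assemble sarcomeres and fuse, while they give up much of the matrix that progenitors secrete. The samples were taken at a single time, so the order of the clusters in time was not measured.

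Replicate 1 gave 1295 cells of cluster 1 and 664 of cluster 8, and replicate 2 gave 1198 and 577. The median depth was 12670 and 13243 UMIs per cell in cluster 1 and 12759.5 and 13509 UMIs in cluster 8 in replicates 1 and 2. No barcode of these clusters occurred in both libraries. Scrublet called 6.02% and 6.51% of the cells of cluster 1 doublets in the respective replicates, against 1.05% and 0.693% of those of cluster 8, and the counts of called genes are also given without these cells. Cells with more than 50 UMIs per 10000 from the S phase and G2/M lists made up 17.3% and 17.1% of cluster 1 and 7.38% and 6.76% of cluster 8.

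UMIs were summed over the cells of each cluster in each library, which gave 4 sums, and every one of 11194 genes was tested by the quasi-likelihood method of edgeR, with p values adjusted over all of them after Benjamini and Hochberg. At an adjusted p under 0.05, 1921 genes (17.2% of those tested) were higher in cluster 1 and 1891 genes (16.9%) were higher in cluster 8, which is 34.1% of the genes tested. None of the 3812 called genes had opposite signs in the 2 libraries, although a call on 2 sums per cluster leaves little room for that. The median size of the change among called genes was 0.51 on the log2 scale, and 340 genes (3.04%) were at least 2-fold higher in cluster 1 and 454 (4.06%) at least 2-fold higher in cluster 8. Since the sums of a library come from the same preparation, the library was also fitted as a replicate block, which gave 2665 genes (23.8%) higher in cluster 1 and 2509 (22.4%) higher in cluster 8. Without the doublets 1883 and 1858 genes were called. The clusters were drawn by the study from these same counts, so a call says that a gene differed by more than the spread between the libraries and is no independent evidence that the clusters are separate. In the plot of fold change against level, called genes lie on both sides of 0 over the whole range of levels.

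**Figure D1:**
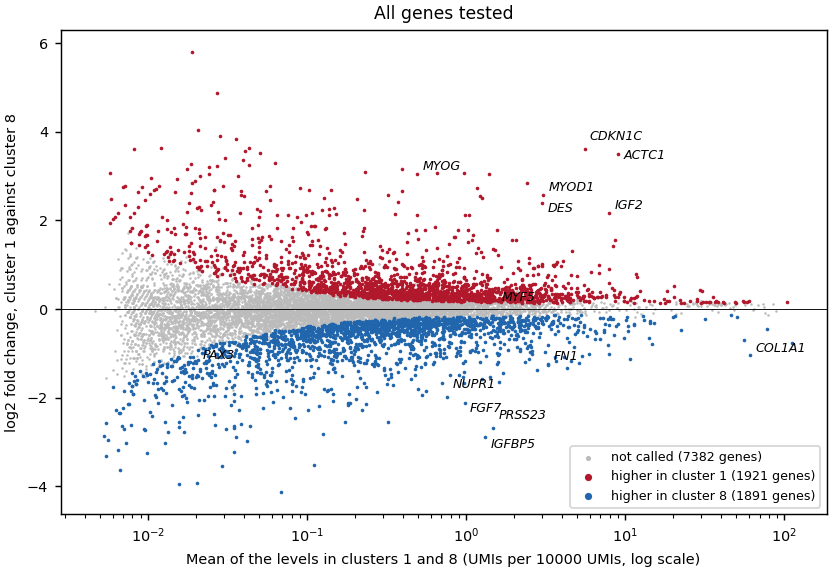
Each point is 1 of 11194 genes, with the mean of its levels in clusters 1 and 8 (UMIs per 10000 UMIs, log scale) on the x axis and its log2 fold change, cluster 1 against cluster 8, on the y axis. Red points are the 1921 genes called higher in cluster 1, blue points the 1891 called higher in cluster 8, and MYF5 lies among the grey points near 0 while MYOD1, DES, ACTC1 and CDKN1C lie more than 2 above it.

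MYF5, MYOD1 and PAX3, which are among the transcription factors by which the myogenic clusters were named, behaved differently from each other. The level of MYF5 was 1.60 and 1.5 UMIs per 10000 in cluster 1 and 1.64 and 1.49 in cluster 8, so the clusters overlapped. MYF5 had a difference of 0.02 on the log2 scale with a standard error of 0.07 (adjusted p = 0.865), with adjusted p values from 0.286 to 0.940 over all alternatives. MYOD1, the other early myogenic factor, measured 5.30 and 5.06 UMIs per 10000 in cluster 1 and 0.882 and 0.902 in cluster 8. Both libraries of cluster 1 stood far above both of cluster 8, with a 5.95-fold difference (log2 2.57, standard error 0.06, adjusted p = 1.21e-07).

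The 2 satellite cell factors were scarce in both clusters. PAX3 was counted as 44 UMIs in cluster 1 and 47 in cluster 8, at 0.0193 and 0.0368 UMIs per 10000 in cluster 8 and 0.0163 and 0.00963 in cluster 1. The libraries of cluster 8 were both above those of cluster 1, but replicate 1 only narrowly, and the log2 fold change of −1.06 (standard error 0.41) did not pass the test (adjusted p = 0.0841). With the replicate block PAX3 was called (adjusted p = 0.00638, with values from 0.00638 to 0.469 over all alternatives), and it was also called without replicate 1 of cluster 8 (log2 fold change −1.44, adjusted p = 0.0279). A PAX3 UMI was found in 1.78% and 1.25% of the cells of cluster 1 and in 2.41% and 4.51% of those of cluster 8 in replicates 1 and 2, and in 0.782%, 0.423%, 0.908% and 2.45% after every cell was thinned to 5000 UMIs. PAX7, with 28 and 17 UMIs in clusters 1 and 8, differed by −0.24 on the log2 scale with a standard error of 0.45 (adjusted p = 0.728). At this depth most cells of either cluster held no UMI of either factor.

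The share of cells with a UMI showed that the difference in MYOD1 was spread over the cells. After thinning to 5000 UMIs, MYOD1 was found in 82.7% of the cells of cluster 1 in replicate 1 (exact binomial 95% interval 80.5 to 84.7%) and 79.2% in replicate 2, against 29.3% (25.9 to 33.0%) and 25.3% in cluster 8. The unthinned shares were 94.0% and 94.1% against 48.0% and 46.1%. Free RNA in the droplets can give UMIs to any cell, but it was not measured here. Cluster 9, which the study called fibro-adipogenic and found not enriched with myogenic markers, serves as the background. The source of the muscle UMIs in cluster 9 was not tested. It had MYOD1 in 17.1% and 12.3% of its cells after the same thinning, at median depths of 22383 and 23601 UMIs before it. The thinned share in cluster 8 lay above that of cluster 9 and well below cluster 1. Unthinned, cluster 9 had MYOD1 in 39.6% and 36.2% of its cells. Cluster 9 was deeper than cluster 8, so equal free RNA per cell would be a smaller part of its UMIs. Whether cluster 8 held more MYOD1 than free RNA would give was therefore not tested.

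MYF5 was found in 46.4% and 44.5% of thinned cells in cluster 1, in 46.9% and 46.0% in cluster 8, and in 5.12% and 3.64% in cluster 9, so nearly equal shares of clusters 1 and 8 held it, many times the background. The unthinned shares of MYF5 were 70.7% and 69.4% in cluster 1, 73.0% and 69.8% in cluster 8 and 17.9% and 16.6% in cluster 9. MYOG, the factor that starts terminal differentiation, was found in 17.9% and 19.3% of thinned cells in cluster 1 and 4.39% and 4.90% in cluster 8, where cluster 9 had 8.36% and 6.07%. The MYOG share of cluster 8 therefore did not rise above background. These intervals and shares cover counting error only.

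Myogenic regulatory factors and their partners were mostly higher in cluster 1. Of 26 tested members, 17 (65.4%) were higher in cluster 1 and 7 were not called. Only 2 (7.69%, below the 16.9% of all genes tested), DACH1 and NFIX, were higher in cluster 8. The median log2 fold change was 0.61, against −0.0019 over all genes tested. MYOG measured 0.804 and 0.950 UMIs per 10000 in cluster 1 and 0.116 and 0.0994 in cluster 8. Even in cluster 1 its level was a fraction of the 6.68 UMIs per 10000 of cluster 3, and its log2 fold change against cluster 8 was 3.06 (standard error 0.11). TCF12, an E protein that pairs with MYOD1, measured 1.75 and 1.77 UMIs per 10000 in cluster 1 and 0.799 and 0.80 in cluster 8 (log2 1.17). CDON, a cell surface receptor that promotes myogenesis, had a log2 fold change of 2.12 (standard error 0.24), and MEF2D, a partner of MYOG at muscle promoters, one of 0.80 (0.11). MYMK, the membrane activator of fusion, was counted as 242 UMIs in cluster 1 and 12 in cluster 8. Its mean levels were 0.0717 and 0.00698 UMIs per 10000. PITX3, a homeobox factor of late myogenesis, had 179 and 3 UMIs, at mean levels of 0.0530 and 0.00170 UMIs per 10000.

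Genes of the contractile apparatus had the largest median fold change of the 30 lists described. Of 33 muscle structure genes tested, 25 were higher in cluster 1 and none was called higher in cluster 8, with a median log2 fold change of 1.77. With the replicate block the counts were 26 and 2. Together the 61 listed genes found in the feature list made up 37.8 and 38.6 UMIs per 10000 in cluster 1 and 5.43 and 6.05 in cluster 8, with both libraries of cluster 1 far above both of cluster 8. ACTC1, the alpha-actin of embryonic muscle, measured 16.2 and 17.1 UMIs per 10000 in cluster 1 and 1.48 and 1.54 in cluster 8 (log2 fold change 3.50, standard error 0.05, adjusted p = 1.03e-08). NEB, the giant protein that sets the length of thin filaments, measured 2.53 and 2.45 UMIs per 10000 in cluster 1 and 0.311 and 0.307 in cluster 8 (log2 3.04). TNNC2, the calcium sensor of fast fibers, measured 4.18 and 4.30 UMIs per 10000 in cluster 1 and 0.512 and 0.701 in cluster 8 (log2 2.84). In each of these genes the spread between libraries was small beside the difference, and the clusters did not overlap.

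DES, the muscle intermediate filament, measured 5.10 and 4.93 UMIs per 10000 in cluster 1 and 0.878 and 1.07 in cluster 8 (log2 fold change 2.40, standard error 0.09). SGCA, a sarcoglycan of the complex that ties the cytoskeleton to the membrane, had a log2 fold change of 3.06, CHRNG, the fetal subunit of the acetylcholine receptor, one of 3.15, and MYH3, embryonic myosin heavy chain, one of 2.47. KLHL41, a stabilizer of nebulin, MYLPF, a fast regulatory light chain, and RBM24, an RNA-binding protein of muscle splicing, were 6.59-, 4.34- and 4.34-fold higher in cluster 1. STAC3 and RYR1, which couple excitation to calcium release, were also called higher (log2 2.12 and 1.68), although RYR1 had only 88 UMIs in cluster 1 and lost its call under DESeq2 (adjusted p = 0.0517, with 0.000115 to 0.0517 over all alternatives). ACTA1, the alpha-actin of adult fibers, measured 0.0722 and 0.127 UMIs per 10000 in cluster 1 and 0.0963 and 0.107 in cluster 8 and was not called (log2 0.00, adjusted p = 0.993). NES, another intermediate filament gene, measured 13.1 and 12.7 UMIs per 10000 in cluster 1 and 4.30 and 4.66 in cluster 8 (log2 1.56). NES averaged 27.8 and 48.4 UMIs per 10000 in clusters 3 and 12, and 14.5 and 6.77 in clusters 2 and 4. In clusters 9 and 7, which the study called fibro-adipogenic, NES averaged 13.4 and 56.3, against 12.9 in cluster 1.

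ACTC1 and DES were also set beside cluster 9. ACTC1 was found in 78.6% and 77.3% of thinned cells in cluster 1, 44.9% and 50.9% in cluster 8 and 43.7% and 46.0% in the fibro-adipogenic cluster 9, and unthinned in 91.1% and 91.7%, 78.8% and 83.9%, and 85.5% and 90.3%. The share in cluster 8 was within a few percentage points of cluster 9, and no expression of ACTC1 in cluster 8 is read from it. For DES the thinned shares were 79.0% and 77.3% in cluster 1, 27.4% and 34.3% in cluster 8 and 23.4% and 21.5% in cluster 9, and the unthinned shares 92% and 92%, 48.8% and 56.2%, and 54.6% and 53.6%. For DES cluster 8 was a little above cluster 9 after thinning and near it before, while cluster 1 was far above both.

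Cell by cell, the muscle structure genes were graded in cluster 1 and low in cluster 8. The median cell of cluster 1 held 24.1 and 22.2 UMIs of these genes per 10000 in replicates 1 and 2, with quartiles from 13.3 to 46.4 and from 12.7 to 46.2. In cluster 8 the median cell held 4.44 and 4.72 UMIs, with quartiles from 2.85 to 6.37 and from 3.27 to 7.03. The lower quartile of cluster 1 was above the upper quartile of cluster 8 in both libraries, and the wide quartile range of cluster 1 shows that its cells differed among themselves.

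**Figure D2:**
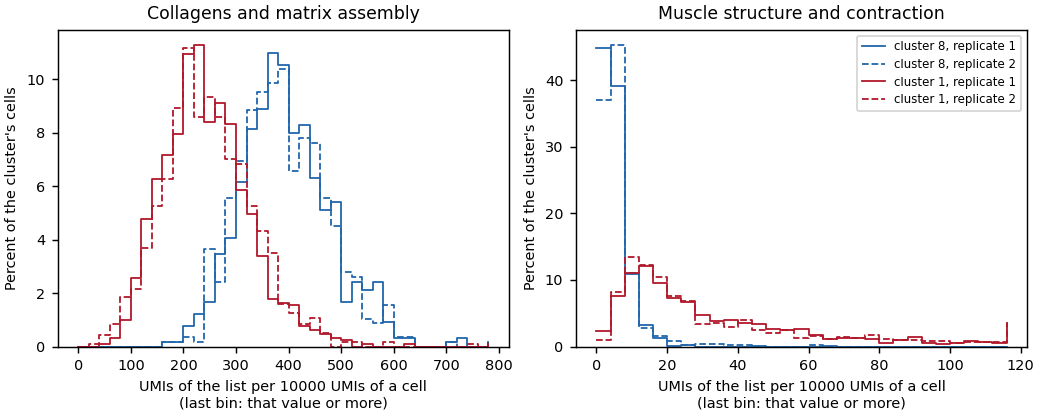
Each line is the distribution over the cells of 1 cluster in 1 library of the summed UMIs of a gene list per 10000 UMIs of the cell, for collagens and matrix assembly (left) and muscle structure and contraction (right), with the percent of the cluster's cells on the y axis and all cells above the range in the last bin. Cluster 8 sits at a median of 388 and 386 UMIs per 10000 for the matrix genes and cluster 1 at 235 and 242, while the muscle genes peak near 0 in cluster 8 and form a long tail in cluster 1.

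The 15 genes with the largest fold changes in each direction, among called genes at 1 UMI per 10000 or more, were mostly muscle genes in cluster 1 and mostly secreted or surface proteins in cluster 8. Only genes that changed the same way in both libraries could enter, so that agreement was a condition of the choice. CDKN1C, the inhibitor of cyclin-dependent kinases also called p57, led in cluster 1 with 9.95 and 10.6 UMIs per 10000 in cluster 1 and 0.867 and 0.847 in cluster 8, a 12.3-fold difference (log2 3.62, standard error 0.05, adjusted p = 1.03e-08). FITM1, a protein of lipid droplet formation in muscle, was 8.37-fold higher and CD82, a tetraspanin of the cell surface, 5.89-fold higher in cluster 1. IGF2, the fetal insulin-like growth factor that muscle cells secrete as they differentiate, measured 11.3 and 14.6 UMIs per 10000 in cluster 1 and 2.26 and 3.65 in cluster 8 (log2 2.17, standard error 0.20). Replicate 2 was above replicate 1 in both clusters for IGF2, by less than the distance between the clusters. CBLN4, a secreted member of the cerebellin family, and MX1, a GTPase induced by interferon, completed the genes higher in cluster 1 (log2 2.50 and 1.79).

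Leading the genes higher in cluster 8, IGFBP5, a binding protein that modulates IGF action, measured 2.36 and 2.28 UMIs per 10000 in cluster 8 and 0.279 and 0.336 in cluster 1 (7.37-fold, log2 −2.88, standard error 0.08, adjusted p = 4.6e-07). PRSS23, a secreted serine protease, measured 2.68 and 2.43 UMIs per 10000 in cluster 8 and 0.389 and 0.393 in cluster 1 (log2 −2.68). FGF7, a growth factor that mesenchymal cells make, measured 1.60 and 1.59 UMIs per 10000 in cluster 8 and 0.375 and 0.345 in cluster 1 (log2 −2.12). The libraries of each cluster nearly coincided for these genes, and the clusters did not overlap. Also in this group were ITGA5, the fibronectin receptor subunit (log2 −1.66), LARP6, which binds the mRNAs of type I collagen (−1.48), GJA1, connexin 43 (−1.44), and PTN, a heparin-binding growth factor (−1.64). TKT of the pentose phosphate pathway and SAT1 of polyamine breakdown were 2.67- and 2.89-fold higher in cluster 8.

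**Figure D3:**
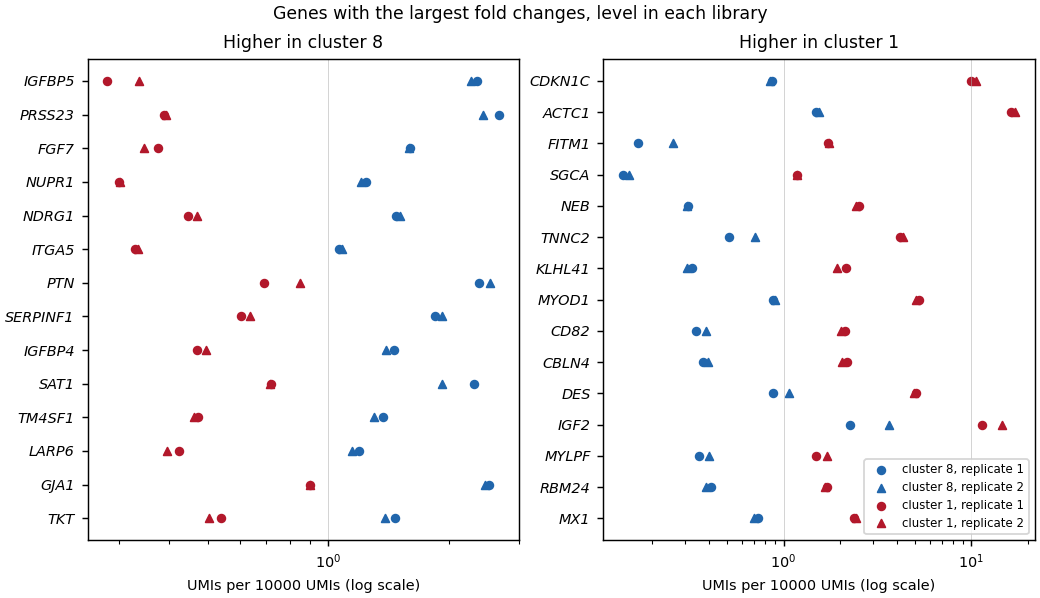
Levels (UMIs per 10000 UMIs, log scale) of genes from the 15 with the largest fold changes in each direction, higher in cluster 8 (left) and higher in cluster 1 (right), with circles for replicate 1 and triangles for replicate 2, red for cluster 1 and blue for cluster 8. For every gene shown both libraries of 1 cluster lie above both of the other, from log2 fold changes of 3.62 for CDKN1C to −2.88 for IGFBP5. The genes were chosen among called genes with the same sign in both libraries, so this separation was largely set by the choice.

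After thinning, IGFBP5 was found in 47.8% and 49.8% of the cells of cluster 8 and 10.3% and 11.2% of those of cluster 1 (unthinned 66.7% and 68.3%, and 18.9% and 21.8%). For CDKN1C the thinned shares were 81.1% and 82.3% in cluster 1, 25.3% and 23.4% in cluster 8 and 20% and 19.6% in cluster 9, and the unthinned shares 90.4% and 90.8%, 47.7% and 48.2%, and 56.0% and 53.8%. After thinning cluster 8 was only a little above cluster 9 in CDKN1C, while most cells of cluster 1 held it.

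The matrix genes were mostly higher in cluster 8. Of 57 collagen and matrix assembly genes tested, 40 were higher in cluster 8, 8 were higher in cluster 1 and 9 were not called, with a median log2 fold change of −0.65. The sum of the list was 249 and 252 UMIs per 10000 in cluster 1 and 397 and 393 in cluster 8, and the libraries of each cluster lay within a few UMIs of each other. COL1A1, a chain of type I collagen, measured 84.3 and 82.2 UMIs per 10000 in cluster 8 and 39.6 and 39.2 in cluster 1 (log2 fold change −1.05, standard error 0.04), and its partner chain COL1A2 measured 89.5 and 92 UMIs per 10000 in cluster 8 and 63.3 and 65.6 in cluster 1 (log2 −0.46, 0.04). FN1, fibronectin, measured 4.56 and 4.70 UMIs per 10000 in cluster 8 and 1.92 and 1.93 in cluster 1 (log2 −1.23), and TNC, tenascin C, measured 6.44 and 5.93 UMIs per 10000 in cluster 8 and 2.40 and 2.44 in cluster 1 (log2 −1.32). Larger differences came from scarcer genes, such as ASPN (asporin, log2 −2.97, 127 UMIs in cluster 8), COL27A1 (−2.07), THBS2 (thrombospondin 2, −1.92), PRELP (−1.69) and VCAN (versican, −1.48).

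The 8 matrix genes higher in cluster 1 included THBS1, thrombospondin 1, at 5.12 and 4.6 UMIs per 10000 in cluster 1 and 2.42 and 2.52 in cluster 8 (log2 1.01), and COL18A1, the collagen of basement membranes that yields endostatin (log2 1.0, standard error 0.20). THBS1 and THBS2, members of the same family, thus differed between the clusters in opposite directions. THBS2 averaged 0.672 UMIs per 10000 in cluster 9, against 0.0761 in cluster 8, and the source of its UMIs in cluster 8 was not tested.

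Enzymes that cross-link or remodel matrix were also mostly higher in cluster 8. Of 32 tested, 23 (71.9%) were higher in cluster 8 (median log2 fold change −0.72). Only 2 (6.25%, below the 17.2% of all genes tested), TIMP2 and ADAMTS1, were higher in cluster 1. The latter count fell without replicate 2 of cluster 1 or replicate 1 of cluster 8. LOX, lysyl oxidase, measured 3.42 and 3.48 UMIs per 10000 in cluster 8 and 1.52 and 1.59 in cluster 1 (log2 −1.12), its relative LOXL2 1.76 and 1.68 UMIs per 10000 in cluster 8 and 0.747 and 0.730 in cluster 1 (−1.19), and PLAUR, the urokinase receptor, 0.657 and 0.718 UMIs per 10000 in cluster 8 and 0.260 and 0.262 in cluster 1 (−1.36). Integrins, the receptors for this matrix, had 8 of 14 tested subunits (57.1%) higher in cluster 8, among them ITGB3 (log2 −1.93) and ITGB1 (−0.57). Only 2 (14.3%, below the share of all genes tested) were higher in cluster 1. Of the latter, ITGA7, the laminin receptor subunit of muscle, measured 2.19 and 2.14 UMIs per 10000 in cluster 1 and 1.10 and 1.19 in cluster 8 (log2 0.96, standard error 0.06), and ITGB8 had only 33 UMIs in cluster 8 and lost its call when replicate 1 of cluster 1 (log2 1.45), replicate 2 of cluster 1 (1.38) or replicate 2 of cluster 8 (0.80) was left out.

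Markers of fibroblasts and fibro-adipogenic progenitors, some of them matrix genes themselves, were also mostly higher in cluster 8. Of 15 tested of 22 listed, 10 were higher in cluster 8 and none was called higher in cluster 1, and their sum ran from 26.3 to 26.4 UMIs per 10000 in cluster 1 and from 41.1 to 42.8 in cluster 8. PDGFRA, the receptor that defines these progenitors, measured 0.251 and 0.282 UMIs per 10000 in cluster 8 and 0.125 and 0.132 in cluster 1 (log2 −1.02), PPARG was counted as 70 UMIs in cluster 8 and 41 in cluster 1, and ZNF423 was not called (adjusted p = 0.331). In cluster 9, which the study called fibro-adipogenic, the sum of the list averaged 22.7 UMIs per 10000, below both clusters. PDGFRA, PPARG and ZNF423 averaged 1.58, 0.288 and 0.125 there, against 0.267, 0.0412 and 0.0684 in cluster 8. DCN, decorin, measured 15.5 and 14.5 UMIs per 10000 in cluster 8 and 6.59 and 6.70 in cluster 1 (log2 −1.14). LUM averaged 5.66 in cluster 8 and 2.62 in cluster 1, so DCN and LUM carried most of the difference in the sum. Of the 10 called markers, 3, DCN, LUM and COL15A1, are also counted among the matrix genes above. S100A4 differed by a log2 fold change of −0.16, a call that was lost after thinning, without cycling cells, in the fit over all 15 clusters, without doublets (−0.10), without replicate 2 of cluster 1 (−0.13) and without replicate 1 of cluster 8 (−0.10). Both clusters held MYF5 in near equal shares, far above the fibro-adipogenic cluster 9, and the part of such cells in the matrix result was not tested.

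The defining markers of immune, glial and endothelial cells had few or no UMIs, while smooth muscle actin did not follow them. No UMI of PTPRC, SOX10 or FOXD3, which mark immune and glial cells, was counted in either cluster, which allows up to 3 UMIs in each sum, and CDH5 and PECAM1, the endothelial cadherin and adhesion molecule, had 6 and 3 UMIs in cluster 1 and 2 and 1 in cluster 8. MCAM, a pericyte marker, had 7 and 1 UMIs. Of the 7 tested pericyte and smooth muscle markers, 5 (71.4%, against 16.9% of all genes tested) were higher in cluster 8 (CNN1, CSPG4, TAGLN, NOTCH3 and ACTA2). Only DES was higher in cluster 1 (14.3%, below the 17.2% of all genes tested). ACTA2, smooth muscle alpha-actin, measured 9.32 and 8.92 UMIs per 10000 in cluster 8 and 8.04 and 7.14 in cluster 1, and the sum of the list, DES included, was 14.1 and 13.1 UMIs per 10000 in cluster 1 and 11.7 and 11.7 in cluster 8. The call of ACTA2 (log2 −0.23) was lost without replicate 2 of cluster 1 (−0.13) or replicate 1 of cluster 8 (−0.18). In the glial list S100B alone was called, higher in cluster 1 (log2 0.50), and neither the 2 endothelial nor the 2 immune genes tested were called, CD68 included (adjusted p = 0.661), although 1 of these endothelial genes was called higher in cluster 8 with the replicate block. Without replicate 1 or replicate 2 of cluster 8 further endothelial genes with few UMIs entered the test, and 1 of those was called higher in cluster 1.

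**Figure D4:**
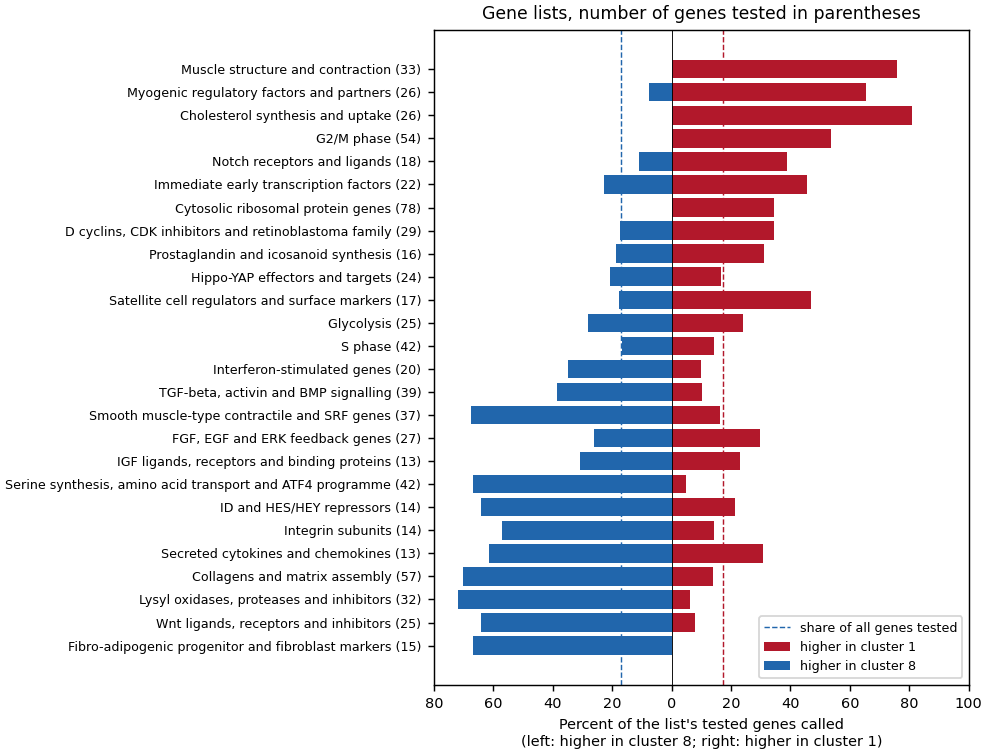
For each gene list with 10 or more genes tested, the bars give the percent of its tested genes called higher in cluster 1 (red, to the right) or higher in cluster 8 (blue, to the left), ordered by the median log2 fold change, and the dashed lines mark the shares of all genes tested, 17.2% and 16.9%. Muscle structure, myogenic regulators, cholesterol synthesis and G2/M genes lie far to the right. Matrix, fibroblast marker, Wnt, amino acid and integrin genes lie far to the left. So do smooth muscle-type contractile genes, ID and HES/HEY repressors and cytokines.

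Genes of serine synthesis, amino acid transport and the response governed by the stress factor ATF4 were mostly higher in cluster 8. Of 42 tested, 28 (66.7%) were higher in cluster 8 and 12 were not called, with a median log2 fold change of −0.50. Only 2 (4.76%, below the 17.2% of all genes tested), ATF3 and ASNS, were higher in cluster 1. Summed, the genes of the list made up 51.2 and 51.6 UMIs per 10000 in cluster 1 and 73.5 and 74.7 in cluster 8. NUPR1, a nuclear protein induced by stress, measured 1.24 and 1.21 UMIs per 10000 in cluster 8 and 0.299 and 0.301 in cluster 1 (log2 −2.0, standard error 0.06). ATF4 itself measured 7.81 and 7.91 UMIs per 10000 in cluster 8 and 5.33 and 5.22 in cluster 1 (−0.54), its target DDIT3, also called CHOP, 1.34 and 1.40 UMIs per 10000 in cluster 8 and 0.579 and 0.602 in cluster 1 (−1.18), and TRIB3, which restrains ATF4, had a log2 fold change of −1.08.

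The serine pathway enzymes PHGDH, PSAT1 and SHMT2 had smaller differences, with log2 fold changes of −0.48, −0.63 and −0.59. ASNS, asparagine synthetase and a target of ATF4, went the other way, at 3.51 and 3.55 UMIs per 10000 in cluster 1 and 2.94 and 3.01 in cluster 8 (log2 0.28, standard error 0.05). HSPA5, the main chaperone of the endoplasmic reticulum, measured 10.8 and 10.6 UMIs per 10000 in cluster 8 and 5.19 and 5.16 in cluster 1 (−1.02), and CREB3L1, a membrane-bound factor that drives collagen genes, 6.53 and 6.26 UMIs per 10000 in cluster 8 and 2.80 and 2.70 in cluster 1 (−1.18). By cell, the median sum of the amino acid and ATF4 list was 53.4 and 53.9 UMIs per 10000 in cluster 1 and 74.8 and 76.0 in cluster 8. Its quartiles in cluster 1 ran from 28.8 to 67.3 and from 28.4 to 68.8, a wider range than the 66.1 to 83.2 and 66.1 to 83.6 of cluster 8, and the upper quartile of cluster 1 passed the lower quartile of cluster 8.

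Genes of cholesterol synthesis and uptake were mostly higher in cluster 1. Of 26 tested, 21 were higher in cluster 1 and none was called higher in cluster 8, with a median log2 fold change of 0.58. HMGCS1, which makes the precursor of mevalonate, measured 3.29 and 3.35 UMIs per 10000 in cluster 1 and 1.67 and 1.66 in cluster 8 (log2 1.03, standard error 0.05). ACLY, which supplies acetyl-CoA, and TM7SF2, a sterol reductase, had log2 fold changes of 1.16 and 2.26, and SREBF2, the transcription factor that governs the pathway, one of 0.56. The sum of the list was 17.0 and 17.0 UMIs per 10000 in cluster 1 and 10.8 and 10.7 in cluster 8, with no overlap between the clusters, while the medians by cell were 13.7 and 13.6 UMIs per 10000 in cluster 1 and 8.48 and 8.67 in cluster 8.

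Cell cycle genes split by phase. In the G2/M list 29 of 54 tested genes were higher in cluster 1 and none was called higher in cluster 8, with 22.1 and 21.5 UMIs per 10000 in cluster 1 and 14.9 and 14.9 in cluster 8. Both clusters lay below cluster 5, with a mean of 32.9, and far below clusters 2 and 4, with means of 155 and 142. Clusters 3 and 12, which the study called myocytes, averaged 28.04 and 24.8, also above both clusters. JPT1, a gene of this list, averaged 3.40 in cluster 1, 1.58 in cluster 8 and 9.47 in cluster 12. By cell, the median sum was 16.8 and 16.2 in cluster 1 and 12.6 and 12.5 in cluster 8. The upper quartile of cluster 8, 17.2 and 16.3, passed the median of cluster 1. How much of the difference in this sum came from dividing cells was not tested. BIRC5, survivin of the mitotic spindle, measured 1.07 and 1.05 UMIs per 10000 in cluster 1 and 0.532 and 0.541 in cluster 8 (log2 1.02), and MKI67, the proliferation marker, 0.460 and 0.462 UMIs per 10000 in cluster 1 and 0.219 and 0.286 in cluster 8 (0.91). Without the cells above 50 cell cycle UMIs per 10000, of which cluster 1 held more, 18 G2/M genes were called higher in cluster 1 in place of 29. The 42 S phase genes tested included 6 called higher in cluster 1 and 7 called higher in cluster 8, the latter count being 4, 3 and 4 without replicate 1 of cluster 1, replicate 2 of cluster 1 and replicate 1 of cluster 8 and 2 under DESeq2. These shares are near or below those of all genes tested. The sums were 10.7 and 10.8 UMIs per 10000 in cluster 1 and 10.6 and 10.3 in cluster 8, close to each other and below the 29.1 ± 0.684 of cluster 5. PCNA, the sliding clamp of DNA replication, was not called (adjusted p = 0.739).

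Regulators of the cycle were led by CDKN1C. CCND3, a D cyclin of differentiating muscle, measured 1.65 and 1.71 UMIs per 10000 in cluster 1 and 0.538 and 0.546 in cluster 8 (log2 1.67), CCND1 was higher by 0.67 on the log2 scale, and GADD45G, a growth arrest gene, measured 2.14 and 2.19 UMIs per 10000 in cluster 1 and 0.834 and 0.925 in cluster 8 (1.33). Not all inhibitors took part. CDKN1A, p21, measured 1.69 and 1.68 UMIs per 10000 in cluster 1 and 1.92 and 1.85 in cluster 8 (log2 −0.13, adjusted p = 0.0754, from 0.00451 to 0.356 over all alternatives, and called with the replicate block, with library totals in place of TMM and after thinning), and CDKN1B, p27, differed by 0.07 on the log2 scale (adjusted p = 0.616). In the whole list of 29 tested cyclins and inhibitors, 10 (34.5%) were higher in cluster 1 and 5 (17.2%) in cluster 8. The latter share is near the 16.9% of all genes tested. That count fell when replicate 1 of cluster 1, replicate 2 of cluster 1 or replicate 2 of cluster 8 was left out.

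Notch signalling controls the choice between renewal and differentiation in satellite cells, and its ligands differed in direction. JAG1 measured 0.362 and 0.374 UMIs per 10000 in cluster 8 and 0.0745 and 0.0740 in cluster 1 (log2 −2.27, standard error 0.09), whereas DLL1, the ligand that committed myoblasts display to their neighbours, measured 0.245 and 0.246 UMIs per 10000 in cluster 1 and 0.0532 and 0.0613 in cluster 8 (2.13). RBPJ, the transcription factor on which the Notch receptors act, measured 1.2 and 1.16 UMIs per 10000 in cluster 1 and 0.580 and 0.570 in cluster 8 (1.07), and HEYL, one of its target repressors, 0.486 and 0.498 UMIs per 10000 in cluster 1 and 0.231 and 0.232 in cluster 8 (1.12). Of 18 tested genes of the pathway, 7 (38.9%) were higher in cluster 1, against 17.2% of all genes tested. That count was 4 under DESeq2 and also fell without replicate 1 of cluster 1. Only 2 (11.1%, below the 16.9% of all genes tested), JAG1 and the receptor NOTCH3, were higher in cluster 8.

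More repressors that hold back myogenic factors were called higher in cluster 8 than in cluster 1, although their summed level was 17.4 and 17.5 UMIs per 10000 in cluster 1 and 16.6 and 16.4 in cluster 8. Of 14 ID, HES/HEY and related repressors tested, 9 (64.3%) were higher in cluster 8, a count that fell without replicate 2 of cluster 1. Another 3 (21.4%, against 17.2% of all genes tested), HEYL, ID1 and HES1, were higher in cluster 1. The call of HES1 (log2 0.40) was lost without replicate 1 of cluster 1 (0.23) or replicate 2 of cluster 8 (0.27). TWIST1 and SNAI2, mesenchymal factors that compete at E-boxes, had log2 fold changes of −1.14 and −1.0, and ID2 one of −0.35. ID1, an inhibitor of DNA binding by the same family, went against them at 9.51 and 9.84 UMIs per 10000 in cluster 1 and 7.33 and 7.36 in cluster 8 (log2 0.43, standard error 0.04). PRRX1, a homeobox factor of limb mesenchyme, measured 5.23 and 4.98 UMIs per 10000 in cluster 8 and 2.26 and 2.19 in cluster 1 (−1.17).

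Growth factors, their receptors and their binding proteins lay on both sides. FGFR4, the FGF receptor of myoblasts, measured 0.977 and 1.01 UMIs per 10000 in cluster 1 and 0.278 and 0.291 in cluster 8 (log2 1.84), while FGFR1 was higher in cluster 8 (log2 −0.88), as was the ligand FGF7 above. PDGFB was counted as 385 UMIs in cluster 1 and 20 in cluster 8 (log2 3.30, standard error 0.20), and MET, the receptor of hepatocyte growth factor, was higher in cluster 1 by 0.60 on the log2 scale. The FGF, EGF and ERK feedback list as a whole had 8 of 27 genes (29.6%) higher in cluster 1 and 7 (25.9%) in cluster 8. The shares of all genes tested were 17.2% and 16.9%. Among IGF binding proteins, IGFBP3 was higher in cluster 1 (log2 1.56) and IGFBP4, IGFBP5 and IGFBP6 were higher in cluster 8 (log2 −1.54, −2.88 and −0.85), and the receptor IGF1R, at 168 and 76 UMIs, was not called (adjusted p = 0.639).

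Wnt and TGF-beta signalling genes leaned to cluster 8. Of 25 Wnt ligands, receptors and inhibitors tested, 16 (64%) were higher in cluster 8, with a median log2 fold change of −0.73. Only 2 (8%, below the 17.2% of all genes tested), FZD2 and SFRP4, were higher in cluster 1. SFRP2, a secreted Wnt modulator, measured 0.196 and 0.215 UMIs per 10000 in cluster 8 and 0.0146 and 0.0205 in cluster 1 (log2 −3.51, standard error 0.18), the ligand WNT5B 0.673 and 0.683 UMIs per 10000 in cluster 8 and 0.207 and 0.239 in cluster 1 (−1.57), and the receptor FZD2 0.316 and 0.371 UMIs per 10000 in cluster 1 and 0.101 and 0.108 in cluster 8 (1.75). SFRP2 and SFRP4, modulators of the same family, thus lay on opposite sides (SFRP4 log2 1.63). SFRP2 averaged 1.78 UMIs per 10000 in cluster 9, far above cluster 8, and the source of its UMIs in cluster 8 was not tested. In the TGF-beta, activin and BMP list 15 of 39 genes (38.5%) were higher in cluster 8, among them TGFB3 (log2 −2.68) and the activin subunit INHBB (−1.78). Only 4 (10.3%, below the 17.2% of all genes tested) were higher in cluster 1, BMP4 (1.06), TGFBR2, SKIL and SMAD1. MSTN, myostatin, had 29 and 15 UMIs and was not called (adjusted p = 0.991), and TGFB1 was called only with the replicate block (log2 −0.62, adjusted p = 0.198, and 4.86e-07 with the block, within 4.86e-07 to 0.939 over all alternatives) or when replicate 2 of cluster 1 (log2 −1.10) or replicate 1 of cluster 8 (−1.04) was left out, its level being higher in replicate 2 of both clusters.

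The actin cytoskeleton of non-muscle and smooth muscle type differed less than the sarcomere and mostly the other way. The 37 tested genes comprised 25 (67.6%) called higher in cluster 8, with a median log2 fold change of −0.30. Another 6 (16.2%, near the 17.2% of all genes tested) were called higher in cluster 1. CNN1, calponin 1, measured 0.436 and 0.526 UMIs per 10000 in cluster 8 and 0.193 and 0.173 in cluster 1 (log2 −1.36), and FLNC, the filamin of muscle, 5.31 and 5.60 UMIs per 10000 in cluster 1 and 2.49 and 2.81 in cluster 8 (1.08). ACTB, beta-actin, was not called (log2 −0.01, adjusted p = 0.849). Hippo-YAP targets divided, with ANKRD1 at 10.3 and 10.1 UMIs per 10000 in cluster 1 and 5.24 and 5.92 in cluster 8 (log2 0.90), CYR61 higher in cluster 1 by 0.31 and CTGF not called (log2 −0.00, adjusted p = 0.993). Of 24 tested in that list 4 were higher in cluster 1 and 5 in cluster 8, shares near those of all genes tested.

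Of the surface markers and regulators of satellite cells, 8 of 17 tested were higher in cluster 1 and 3 in cluster 8, with a median log2 fold change of 0.00, and the latter share is near that of all genes tested. With the replicate block 5 were higher in cluster 8, PAX3 and BCL2 being added, and with the cells thinned 4 were higher in cluster 1. NCAM1, a surface marker of myogenic cells, measured 5.90 and 6.16 UMIs per 10000 in cluster 1 and 4.82 and 5.18 in cluster 8 (log2 0.30), and SDC3, a heparan sulfate proteoglycan of satellite cells, 0.119 and 0.113 UMIs per 10000 in cluster 8 and 0.0506 and 0.0475 in cluster 1 (−1.2).

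Secreted and stimulus-dependent genes also fell on both sides. Of 22 immediate early factors tested, 10 (45.5%) were higher in cluster 1 and 5 (22.7%, against 16.9% of all genes tested) in cluster 8. The latter count fell without replicate 2 of cluster 1. EGR1 measured 2.82 and 2.77 UMIs per 10000 in cluster 1 and 1.68 and 1.44 in cluster 8 (log2 0.87). Of 13 cytokines, 8 (61.5%) were higher in cluster 8, such as CXCL5 (log2 −1.67) and SPP1, osteopontin (−1.0). CXCL5 and SPP1 averaged 8.76 and 0.585 UMIs per 10000 in cluster 9, against 0.350 and 0.977 in cluster 8. After thinning CXCL5 was found in 7.41% and 8.22% of the cells of cluster 8 and 4.23% and 4.56% of those of cluster 1. The source of its UMIs in cluster 8 was not tested. Another 4 (30.8%) were higher in cluster 1, such as CSF1, the macrophage growth factor, at 3.77 and 3.62 UMIs per 10000 in cluster 1 and 1.81 and 2.07 in cluster 8 (0.96). Without replicate 1 of cluster 1 these cytokine counts were 5 and 2, and the summed level of the list was 11.1 and 11.3 UMIs per 10000 in cluster 1 and 10.6 and 10.7 in cluster 8. Interferon-stimulated genes had 7 of 20 (35%) higher in cluster 8 (4 under DESeq2). IFIT1 measured 0.238 and 0.227 UMIs per 10000 in cluster 8 and 0.0669 and 0.0536 in cluster 1 (−1.91). Only 2 (10%, below the 17.2% of all genes tested), MX1 and IFIT5, were higher in cluster 1. The sum of the interferon list ran the other way, at 8.69 and 8.60 UMIs per 10000 in cluster 1 and 7.52 and 7.02 in cluster 8. Among icosanoid genes PTGIS, prostacyclin synthase, measured 4.88 and 5.08 UMIs per 10000 in cluster 1 and 2.28 and 2.58 in cluster 8 (1.07). The receptor PTGER4 measured 0.285 and 0.305 UMIs per 10000 in cluster 8 and 0.0442 and 0.0548 in cluster 1 (−2.54). Of the 16 tested, 5 (31.25%) were higher in cluster 1 and 3 (18.75%, near the share of all genes tested) in cluster 8. Among glycolysis genes ENO3, the muscle enolase, was higher in cluster 1 (log2 1.77). Against 17.2% and 16.9% of all genes tested, 6 of the 25 (24%) were higher in cluster 1 and 7 (28%) in cluster 8. These counts were 3 and 4 without replicate 1 of cluster 1, the cluster 8 count was 4 without replicate 2 of cluster 1, and the cluster 1 count was 3 without replicate 1 of cluster 8. GAPDH was not called (adjusted p = 0.333, from 0.0174 to 0.774 over all alternatives) except with the replicate block.

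Ribosomal protein genes differed by small amounts in one direction. Of 78 tested, 27 were called higher in cluster 1 and none higher in cluster 8, with a median log2 fold change of 0.14. With the replicate block 70 were called, and 11 were called without replicate 1 of cluster 1 and 15 without replicate 2 of cluster 8. CAT, catalase, which breaks down hydrogen peroxide, measured 6.39 and 6.78 UMIs per 10000 in cluster 1 and 2.57 and 2.85 in cluster 8 (log2 1.31).

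Levels in the neighbouring clusters were set beside these differences. The study inferred its trajectory from these same counts, so a change along it is no independent evidence of an order. Cluster 3 follows cluster 1 and cluster 5 adjoins cluster 8 in the study's trajectory, and the values are set side by side without a test, because the comparisons would share cells. ACTC1 stood at 1.77, 1.51, 16.6 and 60.1 UMIs per 10000 in clusters 5, 8, 1 and 3 (means of 2 libraries). In the same order MYOD1 stood at 1.92, 0.892, 5.18 and 6.35, and CDKN1C at 0.730, 0.857, 10.3 and 18.9. In cluster 1 the level of MYOD1 was near that of cluster 3, whereas the level of ACTC1 was far below that of cluster 3.

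MYF5, which was not called between clusters 8 and 1, averaged 1.24 ± 0.0363 in cluster 5 and 0.873 ± 0.113 in cluster 3, as UMIs per 10000 with the SD over 2 libraries. COL1A1 measured 47.2, 83.2, 39.4 and 16.4 UMIs per 10000 in clusters 5, 8, 1 and 3, and NUPR1 0.282, 1.23, 0.30 and 0.0343. Cluster 8 had the highest level of both genes among these 4 clusters, while FGF7 was higher in cluster 5, at 1.92, 1.60, 0.360 and 0.176. Among these 4 clusters FGFR4 was highest in cluster 1, with an average of 0.994 ± 0.0246. It averaged 0.284 ± 0.00936 in cluster 8, 0.375 ± 0.0508 in cluster 5 and 0.372 ± 0.0329 in cluster 3. Within the same 4, HEYL was also highest in cluster 1, at 0.492 ± 0.00821, and lowest in cluster 3, at 0.142 ± 0.00785. Outside them, clusters 2 and 13 averaged 0.882 and 0.961 for FGFR4 and 0.482 and 0.675 for HEYL.

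**Figure D5:**
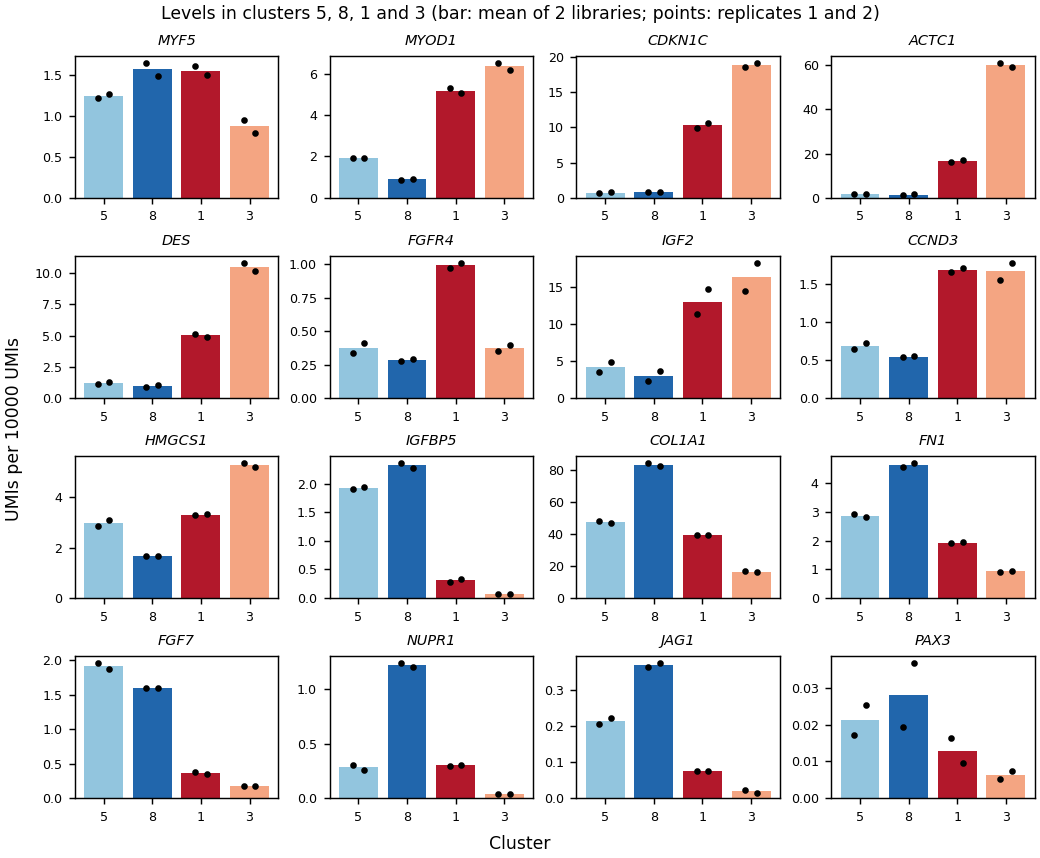
Bars give the mean level of 2 libraries (UMIs per 10000 UMIs) of 16 genes in clusters 5, 8, 1 and 3, and points give replicates 1 and 2, each panel with its own scale from 0. MYOD1, CDKN1C, ACTC1 and DES step up between clusters 8 and 1, IGFBP5, COL1A1, FN1 and JAG1 step down, MYF5 changes little, and FGFR4 peaks in cluster 1 at 0.994.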

How the data were processed

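The deposited files held, for the cells of both libraries, a matrix of UMI counts and a table of gene averages per cluster. The counts were made by the authors with Cell Ranger 3.0.2 from reads mapped uniquely to ARS-UCD1.2, and the libraries were combined after the reads were thinned to a common mapped depth, so genes that share sequence with close copies can be undercounted. The cluster averages, scores that the authors scaled to a common total, were pooled over both libraries and served only to fix the cells' clusters. From these averages, which cover 16816 genes, all 19096 cells were given a cluster in 32 rounds, after which 0 of 252240 sums of a gene in a cluster differed from the deposited averages. The authors' log2 fold changes and p-values per cluster were not used.

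UMIs were summed per cluster and library and tested with edgeR 4.0.16 in R 4.3.3 (TMM factors, its default filter on low counts, quasi-likelihood F test, Benjamini-Hochberg adjustment, threshold 0.05), which kept 11194 of 21867 genes. The steps were tested on simulated sums of 11028 genes, 100 of them changed 3-fold and 98 changed 1.5-fold. The share of false calls was 10.13% without the replicate block and 5.63% with it. Of the 1.5-fold changes 47.96% and 42.86% were found. The simulated sums had no library effect and far fewer changed genes than were called here. These shares therefore need not hold for the reported calls and cannot show which fit is better. Levels are UMIs of a gene per 10000 UMIs of the sum. Depth was 17178051 and 16616532 UMIs in cluster 1 and 8828418 and 8151149 in cluster 8, and intervals and floors cover counting error only. Doublets were called with Scrublet (expected rate 8%, threshold 0.25) and kept except where stated. For shares of cells, each cell was thinned to 5000 UMIs, which left out 17 and 15 cells of cluster 1 and 3 and 5 of cluster 8. The sums of both clusters come from the same 2 libraries, and the replicate ratios (log2, replicate 1 over 2) of the 2 clusters had a correlation of 0.4096 across 9328 genes, which are not independent replicates, so the library was also fitted as a replicate block.

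Other alternatives were library totals without TMM, DESeq2 1.42.0, no filter on low counts, a fit over all 15 clusters, removal of doublets, of cells under 2000 UMIs or of cells over 50 cell cycle UMIs per 10000, thinned cells, each library alone, and, chosen after seeing the data, leaving out each of the 4 sums. Genes were named as the markers behind the cluster names, the 15 largest fold changes in each direction at 1 UMI per 10000 or more, up to 5 called members of each list with at least 100 UMIs, supplemented where needed by abundant members that were not called, and defining markers of other cell types. The largest fold changes were taken among called genes with a symbol and the same sign in both libraries. The members and the lists were chosen with earlier results of these data known. ACTA1, ACTB, ASNS, ATF4, CAT, CCND1, CDKN1A, CDKN1B, COL18A1, CREB3L1, CTGF, CYR61, FN1, GAPDH, HES1, HSPA5, ID1, ID2, IGF1R, ITGB1, LOX, MEF2D, MET, MKI67, MSTN, NCAM1, NES, PCNA, PHGDH, PRRX1, PSAT1, RYR1, SHMT2, SREBF2, STAC3, TCF12, TGFB1, THBS1, TNC and TRIB3, the ribosomal protein list, and members named to spell out a short count were chosen after their values were seen. Some genes that met the naming rule are not reported here, and promoter motifs were not analysed here.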

Additional observations from a re-analysis of the deposited data

How the results depend on the processing

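The counts of genes higher in cluster 1 and in cluster 8, 1921 and 1891, were 1215 and 1183 under DESeq2. Leaving out 1 of the 4 sums gave 1282 to 1764 genes higher in cluster 1 and 1380 to 1759 genes higher in cluster 8, the lowest without replicate 1 of cluster 1 in both directions. Without replicate 1 of cluster 1 the counts were 1282 and 1380. The replicate block gave 2665 and 2509, library totals without TMM gave 1689 and 2087 (a shift of all log2 fold changes by −0.034), thinned cells gave 1335 and 1270, and the removal of cycling cells gave 1883 and 1762, each within 1.5 times of the reported counts. All 3812 called genes were also called with the block, and none of the 221 named genes with a test turned direction under any alternative while called. The block added 5 calls among them, CDKN1A, GAPDH, PAX3 and TGFB1 included, and took none away, while DESeq2 lost 19 and thinning lost 18 of 209. Under DESeq2 the 8 matrix genes higher in cluster 1 became 5. The 2 libraries share a calf and a culture, so animals, cultures and the order of the clusters in time were not measured, and genes with few UMIs, PAX3 and PAX7 among them, could show only large differences at this depth.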
